A study of Mus musculus with 4 samples.

Results

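Tbl1xr1, Cited2 and Jmjd1c are 3 protein-coding genes for transcriptional coregulators, out of 21440 coding genes that could be placed on the genome with a strand. They were selected because many regions of open chromatin in mouse salivary gland organoids (mSGOs) lay far from any coding gene start and nearest to theirs. Together they took 81 of the 23756 distal regions in the list, a distal region being one whose midpoint lay over 1 kb from the 5′ end of every coding gene. The 5′ end is the outermost one of the gene in the RefSeq gene table. Because the number of distal regions chose the genes, it is given as a description with no test.

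The regions came from ATAC-seq, in which a transposase cuts accessible DNA, of organoids grown in Matrigel from submandibular glands of non-irradiated C57BL/6 mice, with no genetic change stated. The series held 4 samples, 2 at passage 1 and 2 at passage 2, and within each passage 1 sample came from a mouse of 12 weeks and 1 from a mouse of 3 months. All 4 were cultured in WRY medium, which contained Wnt3a- and R-spondin1-conditioned medium, EGF, FGF2, dexamethasone and Y27632. The methods of the study give 4 mice and the use of female mice only, and its results describe the organoids as 7-day ones. A single list of 32011 distinct regions, taken here as a consensus of the samples although its size differs from that of the consensus file in the study's methods, was analysed, so no value belongs to 1 sample, the passages cannot be compared, and depth and replicate spread are unknown. Organoids are mixtures of epithelial cells, and the list does not separate the cells in which a region was open. Gene positions are on GRCm38, since the list's regions fitted that build: 38.3% of its coding 5′ ends had a region within 1 kb, beside 5.03% of 21770 coding 5′ ends on GRCm39, the build named in the submitters' processing notes.

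Coregulators do not bind DNA by sequence on their own but are brought to genes by transcription factors. TBL1XR1 is a WD-repeat subunit of the NCoR corepressor complex and takes part in the exchange of corepressors for coactivators at nuclear receptor and Wnt target genes. CITED2 binds the CBP and p300 acetyltransferases, competes there with HIF1A in the response to low oxygen, and acts as a coactivator of AP-2 factors. JMJD1C is a member of the KDM3 (JMJD1) family of Jumonji-domain proteins, whose other members remove methyl groups from histone H3. ATAC-seq shows where DNA is accessible, as at promoters and enhancers, and it does not measure transcription or tell which gene a distal region acts on.

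The listed starts of these genes are shown because they mark where RefSeq places transcription starts, against which the regions at the 5′ ends were checked. The distances were taken from the outermost 5′ end, which is the listed start for Cited2 and lies 399 bp upstream of it for Tbl1xr1 and 30.7 and 89.4 kb upstream of them for Jmjd1c. The 250 bases before each start listed by RefSeq (GRCm38.p6, plus strand, 5′ to 3′) are printed in lower case, with capitals for matches to any of 12 short motifs on either strand. The Tbl1xr1 window is chr3:22076402-22076651, the Cited2 window is chr10:17722978-17723227, and the Jmjd1c windows, of an upstream and a downstream listed start, are chr10:67126838-67127087 and chr10:67185500-67185749.
Tbl1xr1: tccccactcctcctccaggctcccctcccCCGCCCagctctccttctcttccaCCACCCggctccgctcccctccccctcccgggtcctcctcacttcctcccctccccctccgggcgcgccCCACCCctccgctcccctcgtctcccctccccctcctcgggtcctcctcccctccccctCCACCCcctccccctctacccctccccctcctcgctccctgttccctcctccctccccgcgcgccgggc
Cited2: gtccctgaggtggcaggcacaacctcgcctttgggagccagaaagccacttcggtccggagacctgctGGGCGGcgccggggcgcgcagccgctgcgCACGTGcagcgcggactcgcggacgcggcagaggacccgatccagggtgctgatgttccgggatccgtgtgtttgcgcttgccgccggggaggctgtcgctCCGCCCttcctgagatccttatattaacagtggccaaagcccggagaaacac
Jmjd1c, upstream listed start: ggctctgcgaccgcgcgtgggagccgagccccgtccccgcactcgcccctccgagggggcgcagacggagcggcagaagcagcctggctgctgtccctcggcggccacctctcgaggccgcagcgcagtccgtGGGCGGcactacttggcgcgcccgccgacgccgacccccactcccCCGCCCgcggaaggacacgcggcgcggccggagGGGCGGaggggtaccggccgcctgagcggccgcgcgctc
Jmjd1c, downstream listed start: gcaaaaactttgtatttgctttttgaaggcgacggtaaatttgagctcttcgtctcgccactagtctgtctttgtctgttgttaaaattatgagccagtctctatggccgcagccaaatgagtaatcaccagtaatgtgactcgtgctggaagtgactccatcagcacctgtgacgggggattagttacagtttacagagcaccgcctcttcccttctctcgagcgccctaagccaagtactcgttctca

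The windows differed in base composition and in whether a region lay on them. The Tbl1xr1 window held 15 CpG and was 76% G or C, and a region of the list overlapped it. The Cited2 window held 26 CpG, was 66.8% G or C and was overlapped by a region. The upstream Jmjd1c window was the richest of the 4 in CpG, with 40 and 79.6% G or C, but no region overlapped it. The downstream Jmjd1c window held 11 CpG, was 47.2% G or C and was overlapped by a region. For comparison, the median over all 32851 listed windows was 6 CpG and 52.4% G or C, and it was 17 CpG and 60.8% over the 8962 windows that a region overlapped. Overlap was judged on 300 bases, the 250 before the start and the 50 after it, and composition and motifs on the 250 alone. Of the 4 windows, the one without a region thus had the most CpG.

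In the Tbl1xr1 window the capitals mark 1 GC box (GGGCGG) and 3 KLF motifs (GGGTGG), all on the minus strand. The GC box was in 32.7% of all windows and in 63.1% of those that a region overlapped. For the KLF motif these shares were 28.1% and 30.8%. In the Cited2 window the capitals mark 2 GC boxes and 1 E-box (CACGTG, 6.02% of all windows), 148 to 153 bases before the start. The same E-box holds the hypoxia response core (ACGTG, 16.6%) on both strands. In the upstream Jmjd1c window they mark 3 GC boxes. The downstream Jmjd1c window held none of the 12 motifs. Of the other motifs searched, with no match in these 4 windows, the NF-Y motif CCAAT was in 33.8% of all windows, the AP-1 motif TGANTCA in 6.75% and the TEAD motif GGAATG in 12.6%. The AP-2 motif, whose letters are GCCNNNGGC, was in 13.7% of all windows and the SOX motif AACAAT in 9.42%. The FOX motif GTAAACA was in 3.17% of all windows, the RUNX motif TGTGGT in 14% and the TATA box TATAAA in 12.4%. A match shows that the letters are present and not that a factor binds.

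Tbl1xr1 had 31 distal regions, the second rank among coding genes, level with Myc and below the 34 of Klf6. Cited2 and Jmjd1c had 25 each and shared rank 8. Over all coding genes, 0.0420% (9 of 21440) had at least 25, which is the measure the genes were chosen on. The median coding gene had 0 distal regions, the median among the 8651 genes with any was 2, and the 99th percentile was 11.

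All 3 genes lie beside long stretches without other coding starts. The stretch nearer to the 5′ end of Tbl1xr1 than to any other coding 5′ end was 2388.5 kb long, that of Cited2 1518.4 kb and that of Jmjd1c 1503.4 kb, whereas the median over coding genes was 50.4 kb. Per length, Tbl1xr1 had 1.30 distal regions per 100 kb of its stretch, Cited2 1.65 and Jmjd1c 1.66, compared with 0.896 over all stretches. The count that chose the genes enters these values. Some other genes with at least 20 distal regions had them in shorter stretches, such as Klf6 (34 in 969 kb) and Serp2 (24 in 311 kb). Others had longer stretches than Cited2 and Jmjd1c, such as Efnb2 (26 in 1793 kb). The plot of distal regions by stretch length shows that the 3 genes combine a high count with a long stretch, and that many genes with stretches as long had few distal regions.

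**Figure D1:**
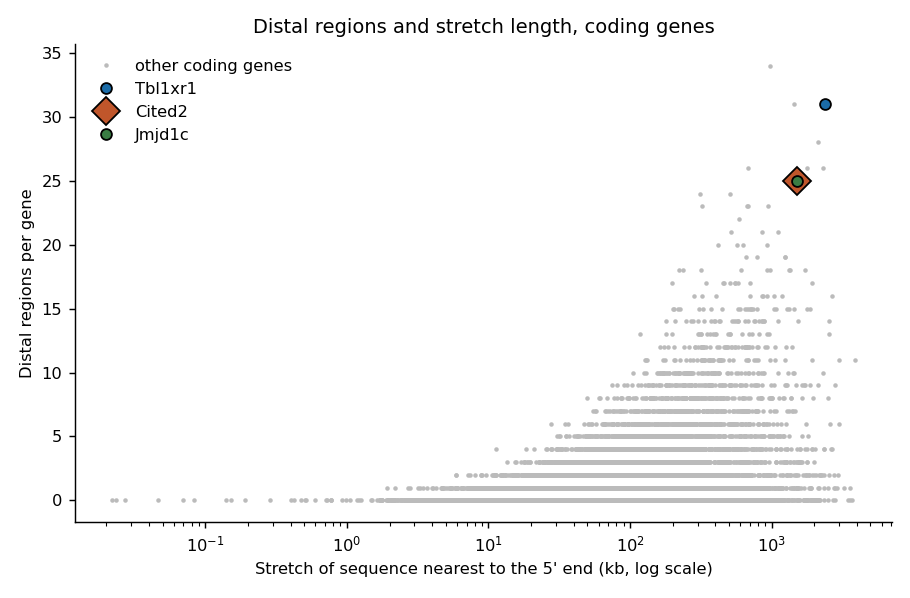
Number of distal regions (vertical axis) against the length of the stretch nearest to the 5′ end (kb, log scale) for each coding gene (grey points), with Tbl1xr1 (blue circle), Cited2 (orange diamond) and Jmjd1c (green circle, drawn on the diamond) marked. Tbl1xr1 sits at 31 regions and 2388.5 kb, and Cited2 and Jmjd1c at 25 regions, with stretches of 1518.4 and 1503.4 kb.

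Of the 81 distal regions, 79 were upstream of the 5′ end of their gene, 2 were downstream and 0 were inside it. The room on the downstream side, gene body included, differed between the genes. It was 1534 kb for Tbl1xr1, 36.5 kb for Cited2 and 0.3185 kb for Jmjd1c, which is under the 1 kb limit, so that every distal region of Jmjd1c had to be upstream. The median distance of the 81 regions was 279 kb, compared with 36.3 kb over all distal regions, and 82.7% of them lay over 100 kb away, compared with 24.0%. Long distances go with long stretches, since a region can be far from every coding start only where starts are sparse, and the part of stretch length in these distances was not tested.

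**Figure D2:**
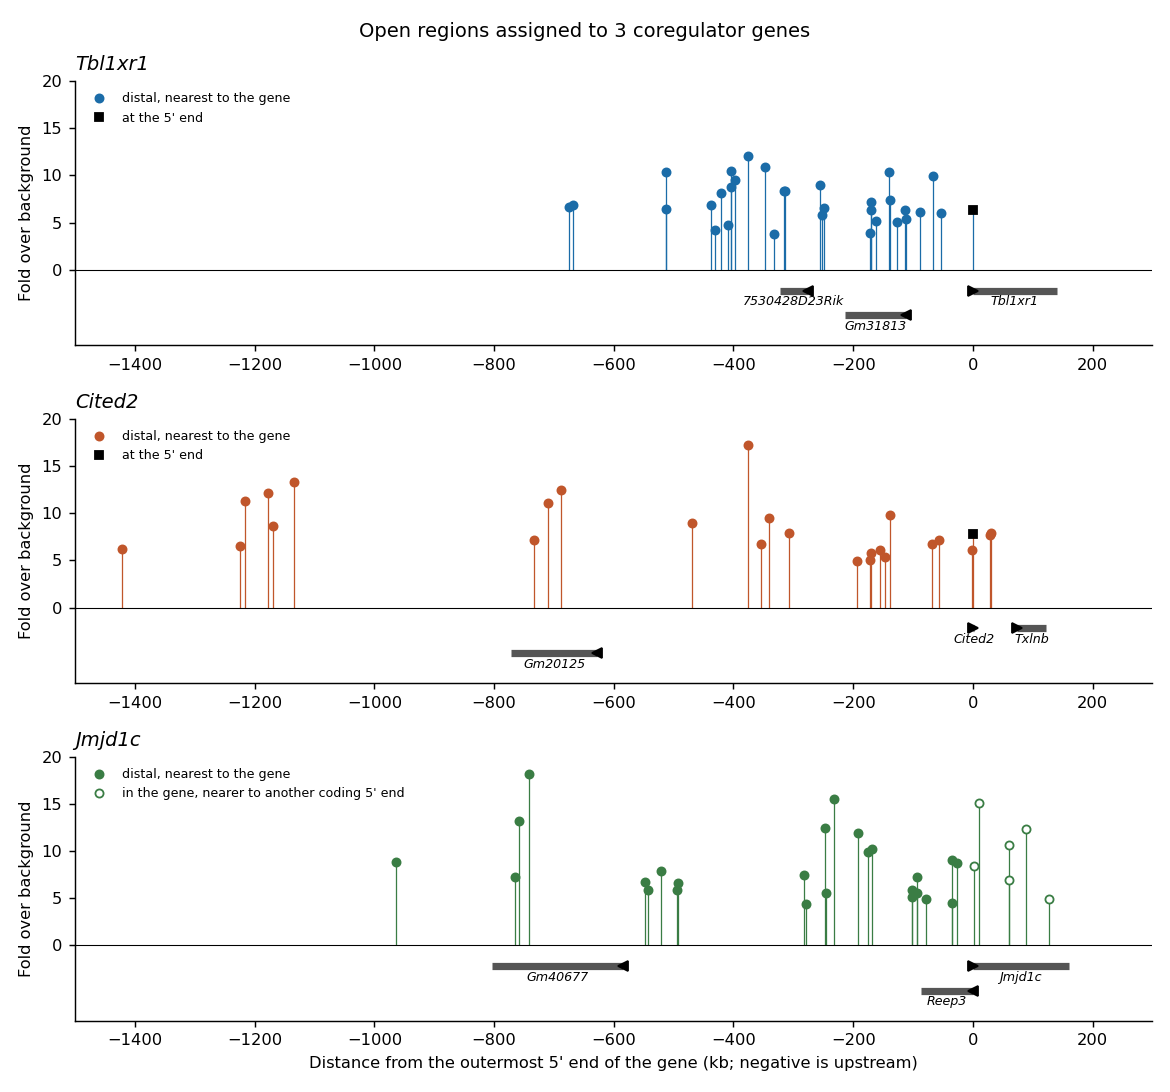
Fold over local background (vertical axis) of each open region against its distance from the outermost 5′ end of Tbl1xr1 (top), Cited2 (middle) and Jmjd1c (bottom), in kb, negative values being upstream. Filled circles are distal regions, black squares regions at the 5′ end, and open circles regions in Jmjd1c that are nearer to another coding 5′ end. Grey bars are gene bodies, with an arrowhead at the 5′ end pointing along transcription. The filled circles lie to the left of 0 except for the 2 regions downstream of Cited2.

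Tbl1xr1, the corepressor subunit, lies on chromosome 3, and its regions formed an array that ended at the gene's start. All 31 distal regions were upstream, from 53.0 to 675 kb away with a median of 314 kb. The upstream side of its stretch, 855 kb long, held 3.63 regions per 100 kb. The downstream side, 1534 kb long and including the 140 kb gene, held 0. Past the region at the 5′ end, the next region in the list lay 2239 kb downstream of the 5′ end, 2098 kb beyond the end of the gene.

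The neighbouring coding 5′ ends were those of Agtr1b (an angiotensin receptor gene) 1709 kb upstream and Naaladl2 3068 kb downstream. For every distal region of Tbl1xr1, the second nearest coding 5′ end was therefore at least 1034 kb away. These 2 genes had 2 and 9 distal regions of their own and 0 regions at the 5′ end.

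At the start of Tbl1xr1 was 1 region, on chromosome 3 from 22076595 to 22076991. Its midpoint lay 540 bp inside the outermost 5′ end and 141 bp from the start that RefSeq lists 399 bp inside that end. It had 3 summits, a fold of 6.32 over local background, which is the signal at its strongest summit divided by the signal around it, and an IDR score of 872 on a scale that ends at 1000. It was the only region in the gene body. Over all coding genes, 38.3% had a region within 1 kb of the 5′ end and 39.5% had at least 1 region inside the gene, the 5′ end included.

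The distal regions of Tbl1xr1 were grouped. When regions with midpoints at most 12500 bp apart were joined, the 31 formed 14 clusters, 6 of them single regions and 8 holding 25 regions (80.6%). The share of regions in clusters of at least 2 was 47.9% over all distal regions. Clusters joined regions of the same gene only, so the sole distal region of a gene could not count towards that share. The number of distal regions, on which Tbl1xr1 was chosen, thus enters this comparison, and its part was not tested. The largest cluster had 7 regions over 40.4 kb, from 21638960 to 21679334, between 397 and 437 kb upstream, with folds from 4.25 to 10.4. Neighbouring midpoints were 10.8 kb apart at the median, and the widest gap was 156 kb, between 513 and 669 kb upstream. Of the 31 regions, 11 (35.5%) had another region within 1 kb, compared with 9.38% of all distal regions. The closest pair had midpoints 370 bp apart.

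The 3 highest folds of Tbl1xr1 were all between 347 and 404 kb upstream. The highest was 12.1, in the region from 21699444 to 21699978, 377 kb upstream. The next was 10.8, from 21729397 to 21729678, 347 kb upstream. The third was 10.4, from 21671747 to 21672236, 404 kb upstream and inside the cluster. All 3 had the top IDR score of 1000 and had higher folds than the region at the gene's own start. Regions 140 and 513 kb upstream also had folds of 10.4, so the third rank was nearly shared. The farthest region, from 21401370 to 21401835, had a fold of 6.70.

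Other genes within this array were noncoding. Of 5 noncoding genes with a known strand and a 5′ end between the farthest region and Tbl1xr1, 4 were lncRNA genes. The lncRNA gene Gm31813, on the opposite strand, held 9 of the 31 regions, and 2 of them lay within 1 kb of its 5′ end, 112 kb upstream of Tbl1xr1. Another lncRNA gene, 7530428D23Rik, held 2 regions, with folds of 8.36 and 8.37. Counting the 5′ ends of all gene types as starts left Tbl1xr1 with 1 distal region, so its count holds among coding starts only.

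Cited2, which codes for the CBP/p300-binding protein, lies on chromosome 10 and is 2.45 kb long. It had 23 distal regions upstream and 2 downstream, spread over the widest range of the 3 genes, from 1.00 to 1422 kb with a median of 340 kb. The upstream side of its stretch, 1482 kb, held 1.55 regions per 100 kb. The downstream side was only 36.5 kb, because the 5′ end of Txlnb lay 73.0 kb away, and it held 5.48 per 100 kb, from a single pair of regions at 29.3 and 30.1 kb. They ran from 17752314 to 17752800 with a fold of 7.64 and from 17753131 to 17753500 with a fold of 7.85. On the upstream side the next coding 5′ end was that of Nmbr (the neuromedin B receptor gene) at 2964 kb.

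The region at the Cited2 start was the widest of those described for the 3 genes. It ran for 901 bp from 17722685 to 17723585, across the 5′ end, with its midpoint 93 bp upstream, 6 summits, a fold of 7.77 and the top IDR score. A second region, from 17721939 to 17722510, had 4 summits and a fold of 6.14. Its midpoint lay 1004 bp upstream, so it counted as distal by 4 bp. Among the regions assigned to the 3 genes, this was the nearest one outside the limit of 1 kb, and the Tbl1xr1 region at 540 bp was the nearest one inside it. No region had its midpoint inside the gene.

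The distal regions of Cited2 were more scattered than those of Tbl1xr1. They formed 18 clusters, of which 12 were single regions and 6 held 13 regions (52%). The largest had 3 regions over 17.4 kb, from 17567711 to 17585155. The regions fell into sets separated by wide gaps, the widest being 401 kb between 733 and 1134 kb upstream. Beyond that gap were 6 regions at 1134 to 1422 kb, and 9 of the 25 (36.0%) lay over 500 kb away, compared with 2.48% of all distal regions. The second nearest coding 5′ end of the 6 farthest regions was that of Txlnb, 1207 to 1495 kb away. Txlnb starts 73.0 kb downstream of the Cited2 5′ end, so each upstream region was only that much farther from Txlnb than from Cited2.

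The highest folds of Cited2 were in regions far from the gene. The highest, 17.2, was in the region from 17347749 to 17348300, 375 kb upstream. The next, 13.3, was in the region from 16589447 to 16589825, 1134 kb upstream. The third, 12.4, was in the region from 17034965 to 17035313, 688 kb upstream and inside the lncRNA gene Gm20125. The 14 regions over 200 kb away had a median fold of 9.24 and a range of 6.21 to 17.2. The 11 regions within 200 kb had a median of 6.14 and a range of 4.91 to 9.81, so the ranges overlapped. The same medians were 8.18 and 6.23 for Tbl1xr1, and 7.33 and 7.24 for Jmjd1c, where they were close to each other. Over all distal regions they were 7.44 for 2594 regions over 200 kb and 6.86 for 21162 regions within it. The farthest region, from 16300974 to 16301327, had the lowest fold of those over 200 kb.

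Noncoding genes also lay within the regions of Cited2. The lncRNA gene Gm32543, for which no strand was found, held 8 of the 25 regions, which were all those between 56.7 and 194 kb upstream. One of these 8 was also in the lncRNA gene Gm32656, and Gm20125 held 3. With the 5′ ends of all gene types as starts, Cited2 kept 3 distal regions.

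Jmjd1c, the KDM3-family gene, also lies on chromosome 10, and its count rests on a shared start. Its 25 distal regions lay upstream, from 27.1 to 964 kb with a median of 246 kb. Its outermost 5′ end lay 637 bp from that of Reep3, which codes for a protein of the endoplasmic reticulum that binds microtubules, and the genes run in opposite directions and overlap by that length. The downstream side of its stretch was therefore 0.3185 kb long, and no distal region could be counted inside or downstream of Jmjd1c. All 25 regions were thus only 0.637 kb farther from the Reep3 5′ end than from that of Jmjd1c. Over all distal regions, 6.12% (1455) had a second coding 5′ end at most 1 kb farther away than the first. Reep3 extends into the upstream side, and 4 of the 25 regions lay within its 87.8 kb body. Among the 23 coding genes with at least 20 distal regions, Jmjd1c was the 1 with another coding 5′ end within 1 kb, the median distance being 217 kb.

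**Figure D3:**
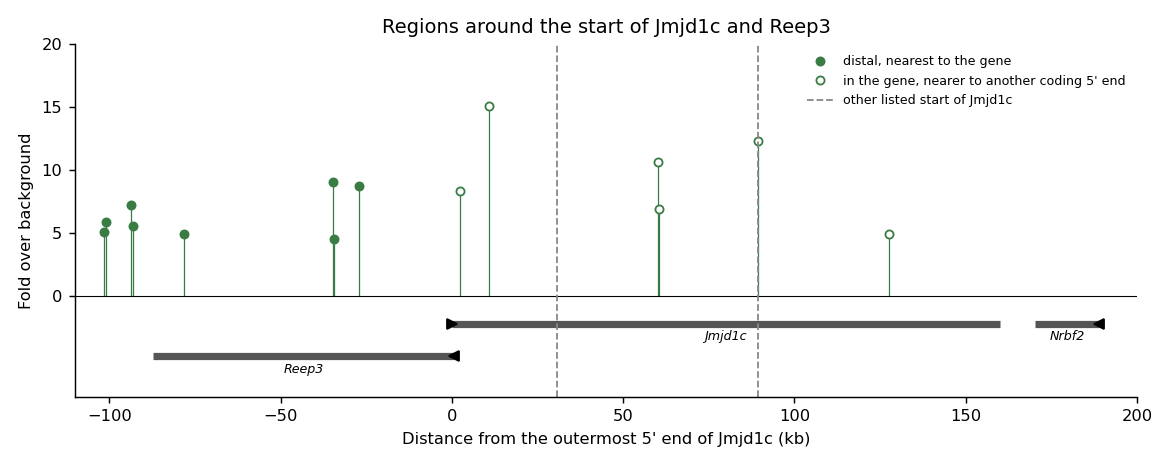
Fold over local background of the regions around the start of Jmjd1c, against distance from its outermost 5′ end in kb. Filled circles are distal regions assigned to Jmjd1c, open circles regions in its body that are nearer to the 5′ end of Reep3 or Nrbf2, bars the gene bodies with an arrowhead at the 5′ end, and dashed lines the starts that RefSeq lists for Jmjd1c 30.7 and 89.4 kb inside. The Jmjd1c and Reep3 arrowheads lie 0.637 kb apart, and the second dashed line runs through a region of fold 12.3.

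The assignment changed when the start was read differently. With the starts of the RefSeq promoter table, which lists none at the outermost end of Jmjd1c, Jmjd1c had 3 distal regions and Reep3 had 27, and with the nearest gene body they had 6 and 25. In the description used here Reep3 had 5. Whether the upstream array belongs to Jmjd1c, to Reep3 or to neither cannot be told apart with these data.

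No region lay within 1 kb of the outermost 5′ end of Jmjd1c. The gene body of 160 kb nevertheless held 6 regions, 5 of them nearer to the 5′ end of Reep3 and 1 to that of Nrbf2. The nearest, from 67098481 to 67099073, was 2.43 kb inside with a fold of 8.37, and the next, from 67106819 to 67107381, was 10.7 kb inside with a fold of 15.04. A pair at 60.2 and 60.6 kb had folds of 10.6 and 6.87. The region from 67185522 to 67185835 had a fold of 12.3 and a midpoint 72 bp from the downstream listed start, whose window is printed above. The last, 128 kb inside, had a fold of 4.91. The CpG-rich upstream listed start, 30.7 kb inside, had its nearest region midpoint 19988 bp away. By listed starts, then, Jmjd1c had 1 region at a start, and by the outermost end it had 0.

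The upstream regions of Jmjd1c formed 14 clusters, 6 of them single and 8 holding 19 regions (76%). The largest had 4 regions over 8.98 kb, from 66994641 to 67003615, 93.0 to 102 kb upstream, with folds from 5.07 to 7.24. The widest gap was 211 kb, between 282 and 493 kb upstream. Of the 25 regions, 8 (32%) had another region within 1 kb, compared with 9.38% of all distal regions. For Cited2 it was 4 of 25 (16%).

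Jmjd1c had the highest fold among the distal regions of the 3 genes. It was 18.1, in the region from 66354035 to 66354562, 742 kb upstream. The next was 15.5, from 66864196 to 66864893, 232 kb upstream. The third was 13.2, from 66337924 to 66338322, 758 kb upstream. The highest and the lowest of these 3 lay in the lncRNA gene Gm40677, which held 3 regions. The lncRNA genes Gm40678, 1700023F02Rik and Gm31763 held 2, 1 and 1. The farthest region, from 66131962 to 66132339, had a fold of 8.83. With the 5′ ends of all gene types as starts, Jmjd1c kept 3 distal regions. The upstream side was bounded by Lrrtm3 (a gene for a leucine-rich repeat protein of synapses), whose 5′ end lay 3006 kb away.

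In fold, the distal regions of the 3 genes lay within the range of the list. The folds ran from 3.76 to 12.1 with a median of 6.87 for Tbl1xr1, from 4.91 to 17.2 with a median of 7.64 for Cited2, and from 4.39 to 18.1 with a median of 7.24 for Jmjd1c. The median over all distal regions was 6.87, with quartiles of 5.58 and 8.92. A fold over 10 was seen in 5 regions of Tbl1xr1 (16.1%), 6 of Cited2 (24%) and 6 of Jmjd1c (24%), beside 17.0% of all distal regions. The top IDR score was given to 41.9, 44 and 52% of the regions, beside 40.9%. Regions of 1 list are not replicates, and these differences were not tested.

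**Figure D4:**
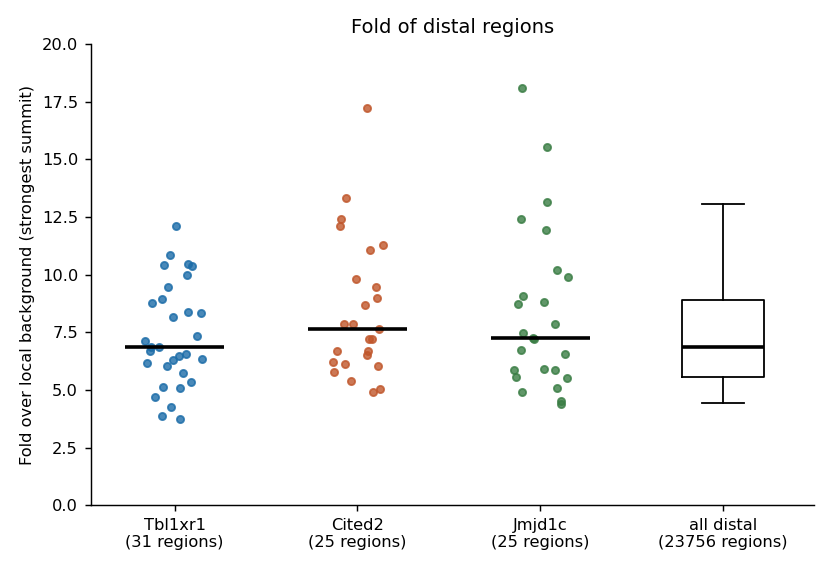
Fold over local background of the strongest summit (vertical axis, from 0) for each distal region of Tbl1xr1, Cited2 and Jmjd1c (points, with bars at the medians of 6.87, 7.64 and 7.24). The box gives the quartiles and median of all 23756 distal regions, with whiskers at the 5th and 95th percentiles (4.42 and 13.1). Most points of each gene fall between the whiskers.

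The regions were of ordinary width, with medians of 437 bp for Tbl1xr1, 372 bp for Cited2 and 432 bp for Jmjd1c beside 388 bp over all distal regions. More than 1 summit was listed for 26 of 31 regions of Tbl1xr1 (83.9%), 14 of 25 of Cited2 (56%) and 20 of 25 of Jmjd1c (80%), beside 68.4% of all distal regions. Only 4 of the 81 regions (4.94%), all in Reep3, lay in the body of a coding gene, beside 49.6% of all distal regions. This share is set in part by the assignment and by gene size. The 6 regions in the body of Jmjd1c were counted for Reep3 or Nrbf2, and Cited2 is only 2.45 kb long. In lncRNA genes lay 29 of 81 (35.8%), beside 12.9%.

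The genes most like each member in distal count and stretch length were found by Euclidean distance over log2(count + 1) and log10 of the stretch, within the 1 list. For Tbl1xr1 they were Efna5 (28 distal regions), Myc (31) and Adgrl2 (26). For Cited2 they were Jmjd1c, Efnb2 (26) and Adgrl2, and for Jmjd1c they were Cited2, Efnb2 and Adgrl2. Cited2 and Jmjd1c were each other's closest, at a distance of 0.0043. The sides differed, however: Myc had 10 upstream and 21 downstream of its 5′ end, Efnb2 had 0 upstream and 22 downstream, and Efna5 had 11 of its 28 inside the gene. Of the 23 coding genes with at least 20 distal regions, 2 had all of them upstream, Tbl1xr1 and Jmjd1c, but for Jmjd1c the assignment left no other place.

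Genes of the same complexes and families, DNA-binding partners of CITED2 and other general coregulators were set beside the 3 genes. Of these 33 genes, 19 had a region within 1 kb of the 5′ end (57.6%, beside 38.3% of all coding genes), the median number of distal regions was 1, and 12 had 0. The highest were Nrip1 (a nuclear receptor corepressor gene) with 17 and Tle3 (a Groucho-family corepressor gene) with 14. Both were under the 25 of Cited2 and Jmjd1c, which were chosen on this count. The stretches of the 33 genes had a median of 128 kb, with 552 kb for Nrip1 and 561 kb for Tle3. Those of the 3 selected genes were 1503.4 to 2388.5 kb, and the part of stretch length in these counts was not tested.

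Among the partners of TBL1XR1, Tbl1x, its close relative, had 4 distal regions and a region of fold 6.06 at its 5′ end. Ncor1 and Hdac3, the scaffold and the deacetylase of the complex, had 0 distal regions but a region at the 5′ end, with folds of 5.43 and 9.60. Gps2, a further subunit, had neither. Of these 4 genes, 3 thus had a region at the 5′ end.

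Of the partners of CITED2, the acetyltransferase genes Crebbp and Ep300 had 4 and 0 distal regions, and each had a region at the 5′ end, with folds of 6.10 and 7.33. Its relative Cited4 had 1 distal region and a fold of 8.12 at the 5′ end, and Cited1 had neither kind of region. The factors linked to it had more, with 9 distal regions at Tfap2a, 8 at Tfap2c, 7 at Hif1a and 3 at Tfap2b. A region at the 5′ end was listed for Tfap2a and Hif1a, and for neither Tfap2b nor Tfap2c.

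The KDM3 relatives of Jmjd1c showed another layout. Kdm3a, a histone H3 demethylase gene, had a strong region at the 5′ end, with a fold of 15.1, and 0 distal regions. Kdm3b had 1 distal region, 2.43 kb from its 5′ end, and none at the end itself. Their stretches had a median of 61.3 kb, beside the 1503.4 kb of Jmjd1c, and the part of stretch length in these counts was not tested.

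**Figure D5:**
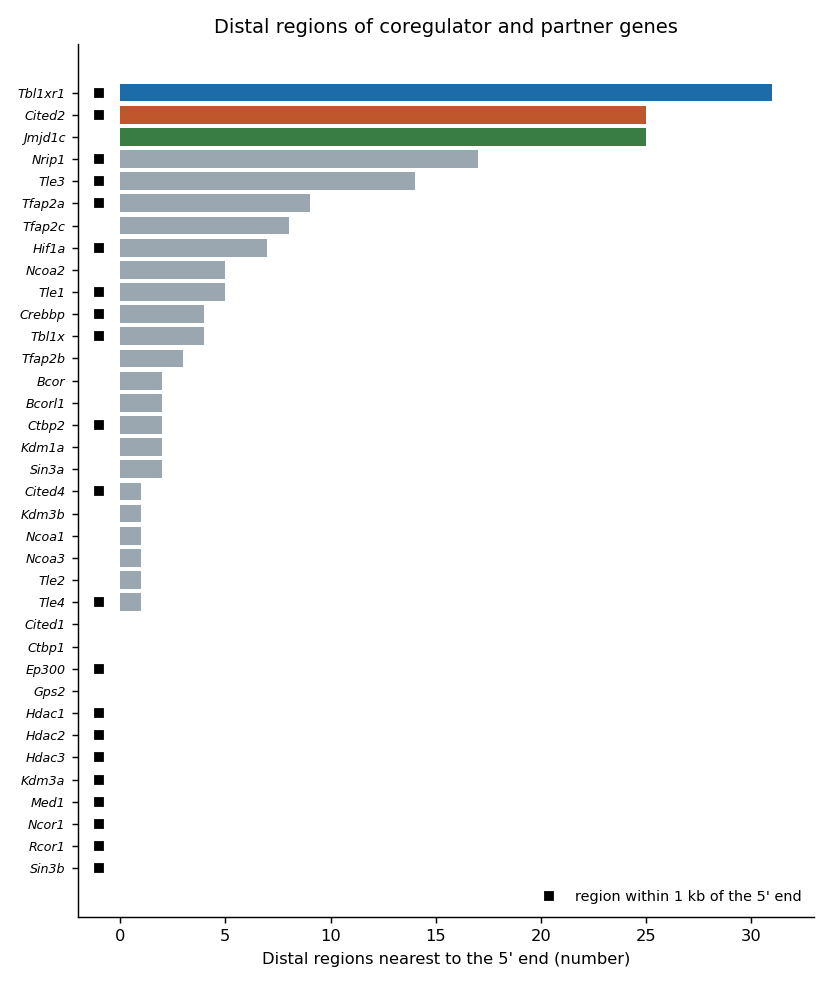
Number of distal regions (horizontal bars, from 0) of Tbl1xr1, Cited2 and Jmjd1c (coloured) and 33 other coregulator and partner genes (grey), with a black square for each gene that has a region within 1 kb of its 5′ end. Tbl1xr1, Cited2 and Jmjd1c, which were selected on this number, stand at 31, 25 and 25, and the next gene, Nrip1, at 17.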

How the data were processed

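ATAC-seq was measured in 4 samples, 2 per passage. Alignment and peak calling by the authors used the pipeline of ENCODE for ATAC-seq. Aligner versions are not given in the sources used here, and HOMER and GRCm39 are named in the submitters' processing notes. The deposited list held 69545 lines, 1 per summit, with an IDR score, a fold (a ratio of signal over local background), and −log10 q-values, which the authors' peak caller made. Its p-values were not used. It had no column for 1 sample, and 0 such columns were left unused. Depth is unknown and no test was made. Intervals over the regions of a gene (order statistics for medians, Wilson for shares) served only to judge changes between settings.

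Lines with the same coordinates were joined into 1 region carrying the values of its strongest summit (lowest q-value). Each region's midpoint was assigned to the nearest coding 5′ end of the RefSeq GRCm38.p6 gene table, and 85 past the first or last 5′ end of a chromosome were dropped. Strand came from the RefSeq promoter table (17492 genes), or else from GENCODE release 39 by name (3948), which placed 21440 of 21887 coding genes (98%). Where both gave a strand (15718), 101 differed and the promoter table was used. Distal regions lay over 1 kb from every coding 5′ end, and clusters joined midpoints of the same gene at most 12500 bp apart. The code was tested on simulated positions. Python 3.11.15, numpy 2.4.6, pandas 2.3.3 and matplotlib 3.10.9 were used.

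Named are the 3 genes, the list of 33 coregulators and partners, the bounding coding genes, genes holding a region, and the 3 genes most like each. Some values beside these, such as those of Klf6, were added after they were seen. The members and lists were chosen with earlier results of these data known. One further gene of the coregulator list is not reported here. Peak sequences and proteins were not analysed here.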

Additional observations from a re-analysis of the deposited data

How the results depend on the processing

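A total of 62 values were recomputed under other settings. Of these, 38 stayed within 1.5 times the reported count or within the interval of the reported median or share, and 24 moved. Not all could move, since the assignment held the share of distal regions inside Jmjd1c at 0. That share was 0 for all 3 genes, so keeping only part of the regions, those with the lowest q-values, had to leave it at 0. In the order Tbl1xr1, Cited2 and Jmjd1c, counting every line (summit) gave 84, 47 and 58 distal regions. Keeping the 16006 regions with the lowest q-values gave 16, 13 and 13, with median folds of 8.86, 9.81 and 9.89, 11 clusters for Cited2 and 0 regions at the 5′ end of Tbl1xr1. These settings change counts by construction. Using the 5′ ends of all gene types gave 1, 3 and 3. Jmjd1c fell to 3 with the promoter table's starts and to 6 with the nearest gene body, while Reep3 went from 5 to 27 and 25. A cluster gap of 25 kb gave 6 clusters for Tbl1xr1 and 9 for Jmjd1c. The mean over summits gave a median fold of 6.05 for Tbl1xr1. Regions at the 5′ end were 0 for Tbl1xr1 within 500 bp, 2 for Cited2 within 2 kb, and 1 for Jmjd1c at any listed start. The promoter table's starts, strand from GENCODE alone, any listed start and the nearest body for Reep3 were chosen after seeing the data. No paired analysis was possible because the list pools the samples, and for the same reason none could be left out. With depth unknown, a missing region shows only that none was listed.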

Other observations

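Among the 23 coding genes with at least 20 distal regions, layouts differed. Foxp1, which codes for a forkhead factor, had all 23 of its distal regions inside the gene, and Tiam1, which codes for a Rac activator, had 20 of 23 inside. Klf5, an epithelial zinc-finger factor gene, had 21 of 22 downstream, and Sox9, a factor gene of ducts and progenitors, had 16 of 23 downstream and 0 inside. The others with 0 inside were Myc, Klf5, Tbl1xr1, Cited2 and, by the assignment alone, Jmjd1c, whose body held 6 regions nearer to other coding 5′ ends. These genes were picked for their values, and their layouts were not tested.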
